A study of Mus musculus with 2 samples.

Results

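The data described here are the 88 natural antisense RNA genes detected in mouse gastrocnemius, the main calf muscle, together with the protein-coding genes they overlap on the opposite strand. Members were genes of GENCODE M21 type antisense, the class of long RNA genes transcribed across a coding gene on the other strand, that reached a TPM of 1 in both libraries (TPM is a level scaled to transcript length and sequencing depth). H19, Airn and Kcnq1ot1 were set aside by the rule, which removed 1 detected gene. The 88 genes are 2.97% of the 2959 antisense genes of the annotation, of which 972 had a count in either library. Total RNA was sequenced from the gastrocnemius of male B6CASTF1/J mice, first-generation hybrids of C57BL/6J and CAST/EiJ, described as 18 to 20 months old. Both libraries belong to the same group, so replicate 1 and replicate 2 (300 ng of RNA each, with ERCC spike-in RNAs added) are compared only with each other. They are labelled biological replicate number 1 and 2, with different animal numbers but the same donor record. Nothing in the labels says how the muscles were dissected, so every test measures the spread between these 2 libraries, which may be technical. The libraries held 40795740 and 44919441 expected counts in genes.

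An antisense RNA is made from the strand opposite to its partner gene, either from a promoter shared with the partner that fires in both directions, from the partner's far end, or from inside its introns. Where exons of both genes overlap, the RNAs are complementary and can pair. Antisense RNAs have been described that act on their partner's transcription, splicing, stability or translation, and others have no known role. In skeletal muscle, the fast myosin heavy chain genes lie side by side with antisense transcripts between them, and the muscle microRNAs miR-1 and miR-133a are cut from an RNA that runs antisense inside Mib1.

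Levels were low for most of the genes. The 88 genes ranged from 1.02 to 57.1 TPM in replicate 1 (median 2.07) and from 1.01 to 49.95 TPM in replicate 2 (median 2.34), beside a median of 8.23 TPM over the 10076 detected protein-coding genes. The members were chosen by these TPM values, which are therefore given as a description. Mean TPM was at least 5 in 17 genes, at least 10 in 12 and at least 20 in 7. The 10 highest genes held 54.1% of the members' summed TPM in replicate 1 and 53.8% in replicate 2, and the 88 genes together held 78.9% and 76.3% of the TPM of all antisense genes. Expected counts ran from 13 to 1983 in replicate 1 and from 12 to 2548 in replicate 2. Just inside the threshold lay Srrm4os at 1.58 and 1.01 TPM, 6230400D17Rik at 1.02 and 2.46 TPM, and 9530082P21Rik at 1.04 and 1.11 TPM. Just outside lay Gm26982 at 1.17 and 0.99 TPM, Gm15510 at 0.97 and 1.37 TPM, and B230369F24Rik at 0.94 and 1.05 TPM. A further 11 antisense genes reached the threshold in replicate 1 only and 18 in replicate 2 only, among them AC157910.6 (opposite the kinase gene Alpk2) at 0.62 and 8.65 TPM.

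**Figure D1:**
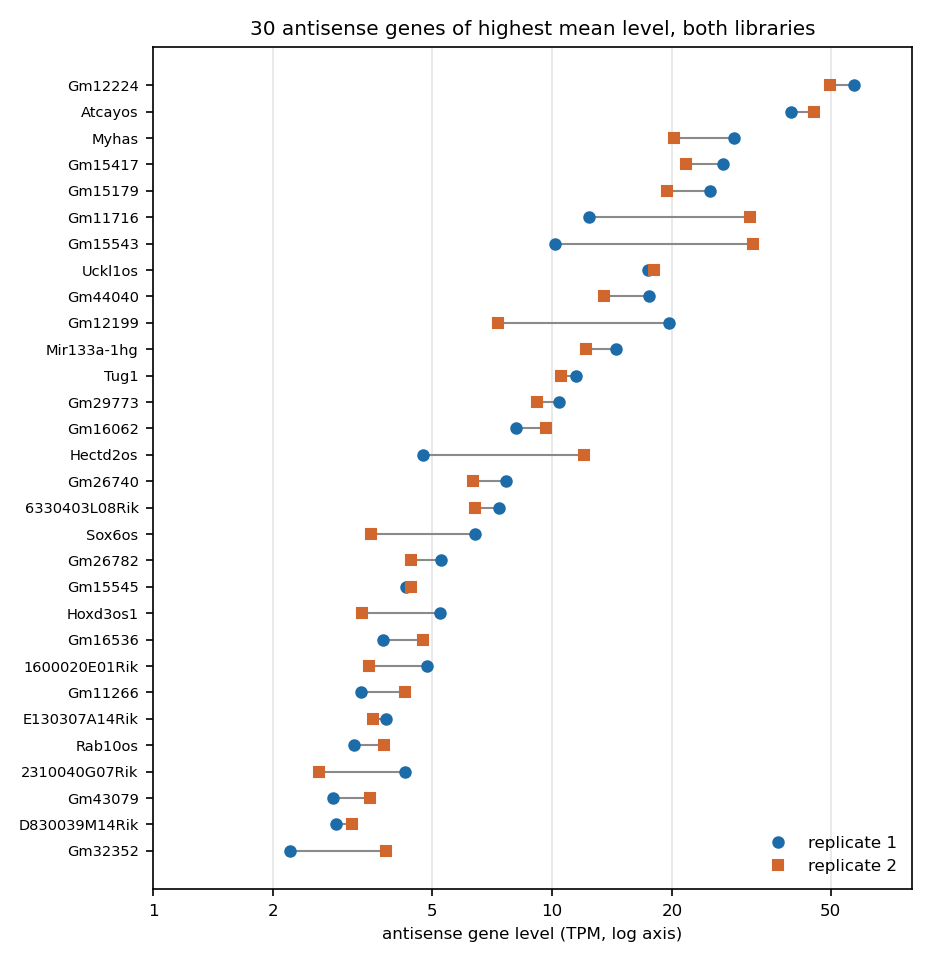
TPM (log axis) of the 30 antisense genes of highest mean level, with replicate 1 as circles, replicate 2 as squares and a line joining both. Gm12224 and Atcayos lie above 39 TPM in both libraries, while Gm11716, Gm15543, Gm12199 and Hectd2os show the widest gaps between libraries.

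Gm12224 (mm10 chr11:54340369-54353479, minus strand) was the highest member, at 57.1 TPM in replicate 1 and 49.95 TPM in replicate 2. It lies within Acsl6, which encodes a long-chain acyl-CoA synthetase, and Acsl6 itself was at 14.2 and 13.0 TPM. Both libraries therefore placed the antisense RNA above the coding gene, at 393% of its mean TPM. Its main isoform carried 94.8% and 95.0% of the gene's TPM. Of its 567 bases, 202 are complementary to Acsl6 exons, and all 202 are coding sequence, split over 3 exons. Gm44040 (chr6:108519029-108525687, minus strand) is the other high member whose overlap is all coding, with 108 bases complementary to Itpr1, the gene of an inositol trisphosphate receptor of the endoplasmic reticulum. Gm44040 was at 17.5 and 13.5 TPM and Itpr1 at 7.31 and 8.44 TPM. The stretches below are read 5′ to 3′ from the GENCODE M21 antisense transcripts and are shown because they are the bases through which these RNAs and their partners' mRNAs could pair; capitals mark the bases complementary to coding sequence, at chr11:54340497-54340592 and chr11:54345176-54345245 for Gm12224 and chr6:108519285-108519392 for Gm44040.
Gm12224, 96 bases opposite Acsl6: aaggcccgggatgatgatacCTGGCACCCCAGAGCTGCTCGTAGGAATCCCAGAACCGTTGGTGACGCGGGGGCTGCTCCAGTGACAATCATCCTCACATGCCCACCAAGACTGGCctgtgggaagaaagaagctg
Gm12224, 70 bases opposite Acsl6: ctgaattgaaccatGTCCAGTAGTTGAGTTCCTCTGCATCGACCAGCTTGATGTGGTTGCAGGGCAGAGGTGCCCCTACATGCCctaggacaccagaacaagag
Gm44040, 108 bases opposite Itpr1: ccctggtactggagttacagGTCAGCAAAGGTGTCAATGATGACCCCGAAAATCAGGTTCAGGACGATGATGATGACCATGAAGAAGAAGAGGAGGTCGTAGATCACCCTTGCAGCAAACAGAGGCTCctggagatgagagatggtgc

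The other genes of the 10 highest lay opposite partners of very different levels. Atcayos (chr10:81194609-81210877, plus strand) was at 39.9 and 45.3 TPM, while its partner Atcay, the gene of the brain protein caytaxin, was listed at 0.01 and 0 TPM. Atcayos also overlaps Nmrk2, a muscle nicotinamide riboside kinase gene of the NAD pathway, which was at 52.7 and 49.8 TPM, close to the antisense RNA in both libraries. Gm15417 was at 26.9 and 21.7 TPM opposite the transcription factor gene Zbtb7b at 11.5 and 12.0 TPM. Uckl1os was at 17.5 and 18.0 TPM opposite the uridine-cytidine kinase-like gene Uckl1 at 14.5 and 9.79 TPM. All 3 antisense RNAs thus stood above the overlap partner in both libraries.

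Gm15179 (chr1:75368212-75375012, minus strand) was at 24.9 and 19.4 TPM and overlaps 220 exonic bases of Des, the gene of the muscle intermediate filament protein desmin, at 996 and 1096 TPM. Its mean level was 2.12% of its partner's. Gm11716 was at 12.4 and 31.3 TPM within Pitpnc1, a phosphatidylinositol transfer protein gene at 24.2 and 31.1 TPM. Gm15543 was at 10.2 and 32.0 TPM within Casc1, which was at 0.01 and 0.07 TPM. Gm12199 was at 19.6 and 7.33 TPM within Adamts2, the procollagen aminopeptidase gene, at 2.50 and 2.03 TPM. These last 3 share no exonic base with their partners and are the members of the 10 that differed most between the libraries.

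Of the 88 genes, 84 overlap a protein-coding gene on the other strand, and 12 of them have more than 1 candidate, in which case the one with most overlapping exonic bases was taken. In 33 pairs the antisense gene lies within its partner, in 27 the 5′ ends overlap, in 21 the 3′ ends overlap, and in 3 the partner lies within the antisense gene. Members lay within their partner in 39.3% of pairs, against 58.3% of all 2731 annotated antisense genes with a partner, and overlapped it at the 3′ end in 25.0% against 15.1%. Exons overlapped in 64 pairs (76.2%, against 61.4% of the annotation), by 10 to 2617 bases with a median of 290, and 38 pairs shared coding bases. Overlap was counted over the exons of all annotated isoforms of a gene. In 9 of the 64 pairs, at least 50% of the antisense TPM in both libraries lay on transcripts without exon overlap. Partners were more often detected than coding genes at large: 71 of 84 (84.5%) reached 1 TPM in both libraries, against 45.7% of all 22028 coding genes and 54.7% of the 2302 partners of antisense genes that were not detected. Median levels were 9.44 TPM for the partners, 0.69 TPM for all coding genes and 1.83 TPM for partners of undetected antisense genes. No test was made of these shares.

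The antisense RNA stood above its partner by mean TPM in 27 of 84 pairs, in 26 of them in both libraries, and below it in both libraries in 53. Its median level was 26.8% of the partner's, or 21.3% over the 71 pairs whose partner was detected. Percent medians in this paragraph leave out pairs whose partner was listed at 0 in both libraries. In 27 pairs the antisense RNA was under 10% of its partner, and in 1 pair under 1%, D830024N08Rik within Tecr, an enzyme gene of very-long-chain fatty acid synthesis. Pairs with overlapping 3′ ends had a median of 51.9% of the partner and those with overlapping 5′ ends 19.5%. Across the 84 pairs the log2 levels of antisense gene and partner had a Pearson r of 0.09 and a Spearman rho of 0.14, over genes of the same 2 libraries. Members had to reach 1 TPM in both libraries and partners did not, which sets a floor under these shares. The counts, shares and correlations therefore describe the chosen pairs, not antisense genes at large.

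The 4 members with no overlapping coding gene were Gm43079 at 2.83 and 3.49 TPM, Map2k3os at 1.14 and 1.99 TPM, Gm13375 at 1.51 and 1.53 TPM and Foxo6os at 1.16 and 1.42 TPM. Map2k3os starts 166 bases from the kinase gene Map2k3 (49.8 and 44.4 TPM) and Gm13375 starts 173 bases from Arhgap21 (11.1 and 14.1 TPM), both on the other strand, so these 2 lie beside a detected coding gene without overlapping it. On their own strand, 11 members overlap another annotated gene, 6 of them a small RNA gene, where reads could be shared. Among the members below the 10 highest, Gm29773 was at 10.4 and 9.19 TPM opposite the nuclear pore gene Nup133 at 4.02 and 4.38 TPM. On its own strand Gm29773 overlaps the coding gene Gm20388, at 5.19 and 4.41 TPM. The nearest coding start on the other strand, 1522 bases away, is that of the actin gene Acta1, at 20725.2 and 18064.5 TPM. Sox6os, chosen for mention after its values were seen, was at 6.41 and 3.51 TPM within Sox6, a transcription factor gene that represses slow fibre genes, at 78.4 and 58.3 TPM. Both of that pair were lower in replicate 2, neither by 2-fold.

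**Figure D2:**
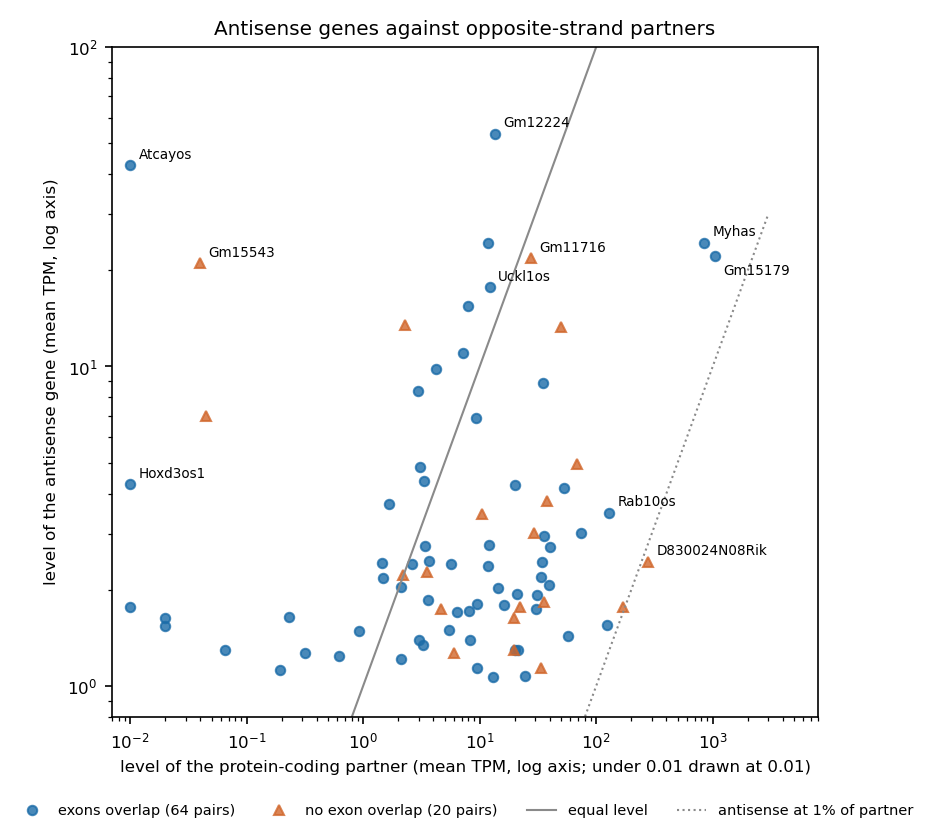
Mean TPM over both libraries (log axes) of each antisense gene against its protein-coding partner, with circles for the 64 pairs whose exons overlap and triangles for the 20 whose exons do not. Of the 84 points, 27 lie above the line of equal level, and D830024N08Rik is the point below the dotted line at 1% of the partner.

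The highest ratios came from partners hardly detected in these libraries. Atcayos, Gm15543, Gm26740, Hoxd3os1, Tmem147os, Gm16008, Plet1os and Srrm4os had the 8 highest antisense-to-partner ratios, and in each case the partner was under 0.1 TPM in both libraries. Gm26740 was at 7.66 and 6.33 TPM opposite Raet1e, a ligand gene of the natural killer receptor NKG2D, at 0.04 and 0.05 TPM. Hoxd3os1 was at 5.24 and 3.34 TPM while the homeobox gene Hoxd3 was listed at 0 in both libraries. It overlaps 2 more genes of the cluster, of which Hoxd4 was at 0.43 TPM in each library and Hoxd8 at 25.2 and 17.0 TPM. Tmem147os was at 1.95 and 1.58 TPM opposite Gapdhs, the sperm form of glyceraldehyde-3-phosphate dehydrogenase, listed at 0 in both. Tmem147, the coding gene it is named after, was at 89.3 and 90.7 TPM. Gm16008 was at 1.84 and 1.43 TPM opposite Tnfrsf18, a receptor gene of regulatory T cells, and Plet1os at 1.49 and 1.58 TPM opposite Plet1, and both partners were listed at 0 and 0.04 TPM. Srrm4os, at 1.58 and 1.01 TPM, lies opposite Srrm4, a splicing factor gene of neurons, at 0.04 and 0.09 TPM. In 14 other pairs the partner was detected and the antisense RNA still stood above it.

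The start of each gene was taken as its outermost annotated 5′ end, which need not be that of its main isoform. By that measure, 28 members (31.8%) started within 500 bases of a coding gene's start on the other strand, against 13.8% of all antisense genes. In 12 of the 28 that gene is the overlap partner, and in the rest it is a neighbour. All 28 coding genes were detected. The smallest gaps belonged to 0610040B10Rik, 9 bases from the start of the palmitoyltransferase gene Zdhhc4 (1.25 and 2.34 TPM against 17.9 and 14.6 TPM), and Ccdc142os, 14 bases from the mitochondrial ribosomal protein gene Mrpl53 (1.13 and 1.40 TPM against 43.1 and 42.8 TPM). Gt(ROSA)26Sor, the RNA of the Rosa26 locus used for transgene insertion, starts 32 bases from Setd5 and was at 2.46 and 2.34 TPM beside Setd5 at 10.2 and 9.86 TPM. Gm16062 starts 64 bases from Flcn, the folliculin gene, and was at 8.11 and 9.68 TPM beside 22.2 and 22.4 TPM. Tug1, a widely expressed long noncoding RNA, has a 5′ end that overlaps that of Morc2a, and was at 11.5 and 10.6 TPM beside 6.80 and 7.46 TPM. In 4 of these 5 pairs the coding gene was the higher of the pair in both libraries, and Tug1 was the exception. These 5 were chosen for mention after their values were seen.

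RefSeq promoter windows (GRCm38.p6, 250 bases before to 50 after a start) matched 48 of the 88 members by symbol. Of the 15 among them whose start lies within 500 bases of an opposite coding start, 12 windows (80%) had at least 50% G and C and a ratio of observed to predicted CpG dinucleotides of at least 0.6. That held for 9 of the 33 other members (27.3%) and for 33.4% of all 32817 windows in the table. Median G and C content was 64.3%, 55.0% and 52.7% in that order. The split follows GENCODE starts while the windows sit at RefSeq starts, and in 12 of the 48 these lie over 500 bases apart. Junos, for example, stands among the 33 although its RefSeq start is close to that of Jun. Over the windows within 500 bases of the GENCODE start, a restriction added after seeing the data, the shares were 10 of 13 (76.9%) and 8 of 23 (34.8%). These shares describe base composition and were not tested.

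Junos and Jun, the gene of the AP-1 transcription factor subunit c-Jun, are a head-to-head pair whose RefSeq starts lie 95 bases apart. The outermost GENCODE 5′ end of Junos lies 688 bases inside Jun. The only Junos isoform that shares exonic bases with Jun carried 4.85% and 8.27% of the Junos TPM. Junos was at 2.07 and 3.38 TPM, and Jun at 21.4 and 59.0 TPM, so both were higher in replicate 2. The 250 bases upstream of the Jun start, on the Jun strand, hold the Junos start and are shown because both genes are read outward from them (chr4:95052223-95052472, minus strand, RefSeq GRCm38.p6). Capitals mark matches, on either strand, to GGGCGG (GC box), CCAAT, TGACATCA (a variant of the AP-1 site) and TAAAAATA (core of the MEF2 site), which do not overlap here.
Jun and Junos: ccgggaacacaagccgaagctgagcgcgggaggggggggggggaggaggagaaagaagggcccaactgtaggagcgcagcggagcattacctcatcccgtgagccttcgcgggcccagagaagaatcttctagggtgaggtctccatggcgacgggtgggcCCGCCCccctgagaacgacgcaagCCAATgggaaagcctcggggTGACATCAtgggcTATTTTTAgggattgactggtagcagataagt
Counting from the Jun start, the matches begin at -89, -65, -45 and -32 in that order. Of all 32817 windows, 35.6% held GGGCGG, 37.4% CCAAT, 3.62% TGACATCA and 2.72% TAAAAATA. TGACTCA, the common AP-1 site, and TGACGTCA and TATAAA had no match in these bases. A match is only a run of letters.

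Myhas (chr11:67211256-67237573, minus strand) links both neighbouring fast myosin genes. Its 5′ end lies 456 bases from the start of Myh4, the fast type IIb myosin heavy chain gene, with both read outward. Its 3′ end overlaps Myh1, the type IIx gene. Taken over all annotated Myhas isoforms together, the overlap is 515 exonic bases, 406 of them coding. The main Myhas transcript, with 86.02% and 87.97% of the Myhas TPM, overlaps 259 exonic bases of Myh1. Myhas was at 28.6 and 20.2 TPM, Myh4 at 15964 and 11005 TPM, and Myh1 at 511 and 1171 TPM. Myhas and Myh4 were thus both higher in replicate 1, whereas Myh1 was higher in replicate 2. On TMM-scaled counts, which put the libraries on a common scale, log2 replicate 2 over replicate 1 was -0.55 for Myhas (exact binomial test, adjusted p = 1.33e-10, under the 2-fold mark), -0.58 for Myh4 and 1.14 for Myh1. Myhas was at 5.6% of the Myh1 TPM in replicate 1 and at 1.73% in replicate 2, a 3.23-fold difference on counts.

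**Figure D3:**
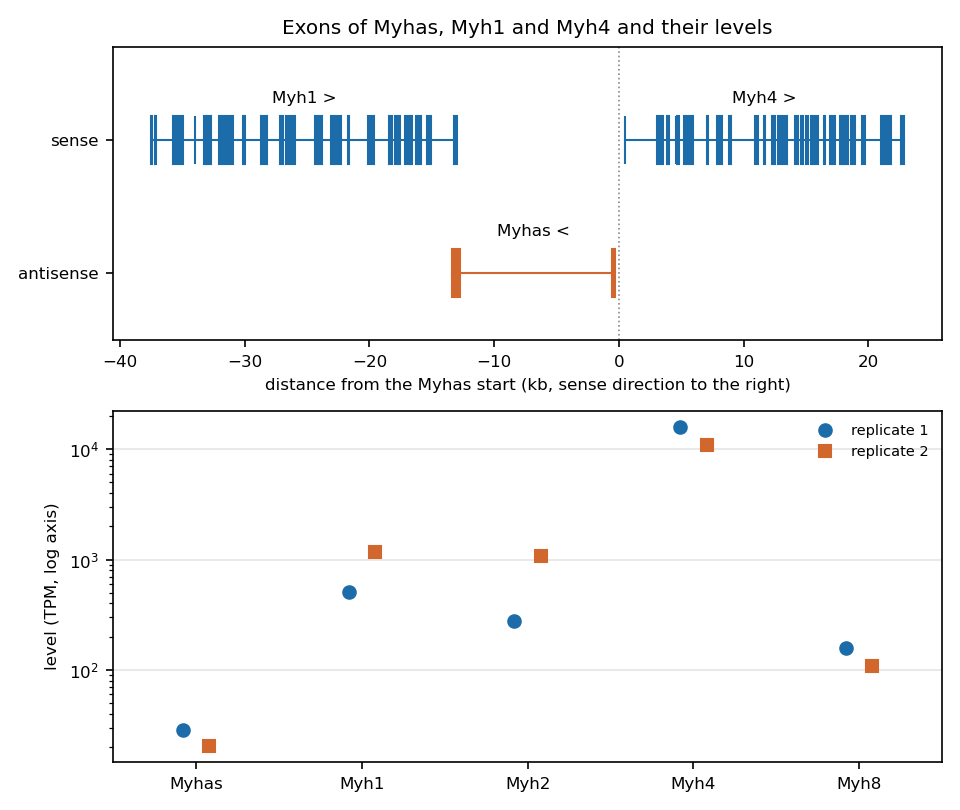
Upper panel: exons of Myh1 and Myh4 (sense) and of the main Myhas transcript (antisense) by distance in kb from the Myhas start. That start is the outermost 5′ end of the gene. Lower panel: TPM (log axis) of Myhas and 4 myosin heavy chain genes in replicate 1 (circles) and replicate 2 (squares); Myhas, Myh4 and Myh8 are lower in replicate 2, Myh1 and Myh2 higher.

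Sequence limits how Myhas can be read. The longest single stretch of the main Myhas transcript opposite Myh1 coding sequence is 150 bases (chr11:67224317-67224466, minus strand, GENCODE M21), printed here because its complement is 96.0% identical to Myh4, 94.7% to Myh2 and 91.3% to Myh8. Capitals mark the 150 bases. The part of this likeness in the level assigned to Myhas was not tested.
Myhas, 150 bases opposite Myh1: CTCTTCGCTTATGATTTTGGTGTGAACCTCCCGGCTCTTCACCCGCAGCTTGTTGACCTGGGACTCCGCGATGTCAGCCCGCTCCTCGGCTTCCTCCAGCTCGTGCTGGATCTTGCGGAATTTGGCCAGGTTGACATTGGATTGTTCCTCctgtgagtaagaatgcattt
The promoter side of Myhas is given by its RefSeq window (chr11:67237232-67237531, minus strand), whose start lies 292 bases inside the GENCODE 5′ end. It had 44.3% G and C and 6 CpG dinucleotides, and of TATAAA, TAAAAATA and CANNTG (the E-box bound by MyoD), searched on both strands, it held 1 TATAAA (in capitals). TATAAA was in 13.6% of all windows and CANNTG in 72.3%.
Myhas window: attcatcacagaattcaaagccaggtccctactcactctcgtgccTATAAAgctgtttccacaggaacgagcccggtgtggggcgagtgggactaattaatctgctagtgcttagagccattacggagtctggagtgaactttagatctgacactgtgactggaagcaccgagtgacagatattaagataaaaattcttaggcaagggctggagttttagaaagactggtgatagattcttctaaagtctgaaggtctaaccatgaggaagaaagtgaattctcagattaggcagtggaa
Gm15179 starts 285 bases from Speg, a kinase gene of striated muscle at 117 and 108 TPM, and is the other high member that begins beside a muscle gene. Its window (chr1:75374966-75375265, minus strand) held 1 TAAAAATA and 1 CANNTG, in capitals.
Gm15179 window: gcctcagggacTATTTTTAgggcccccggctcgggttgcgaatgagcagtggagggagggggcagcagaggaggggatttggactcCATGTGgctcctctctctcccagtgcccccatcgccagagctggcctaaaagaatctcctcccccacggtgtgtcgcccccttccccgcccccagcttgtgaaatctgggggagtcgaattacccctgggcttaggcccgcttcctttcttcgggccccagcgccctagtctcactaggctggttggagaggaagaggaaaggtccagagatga

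Differences between the libraries were tested for all genes with a mean expected count of at least 10, by a 2-sided exact binomial test with TMM library sizes and Benjamini-Hochberg adjustment, and called at an adjusted p under 0.05 with at least 2-fold. The test holds counting error only. Of the 88 antisense genes, 9 (10.2%) were called, 6 higher in replicate 2 and 3 higher in replicate 1, beside 6.18% of all 14965 genes tested (4.48% higher in replicate 2 and 1.7% higher in replicate 1) and 12% of genes with a mean count of 10 to 100. Members had to reach 1 TPM in both libraries, which limits how far the lowest can differ. The median log2 difference was -0.03 over the members and 0.01 over all genes, and median absolute differences were 0.29 and 0.21. Most members had low counts, and over all genes with a mean count of 10 to 100 the median absolute difference was 0.40. Scaling by the spike-in RNAs moved the median of all genes to 0.23 and that of the members to 0.19.

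Gm15543 differed most among those higher in replicate 2, at 3.04-fold (95% exact interval 2.38 to 3.93; 84 and 290 counts; exact binomial test, adjusted p = 3.17e-21). Hectd2os was at 4.76 and 12.0 TPM, 2.54-fold (2.05 to 3.17), opposite the ubiquitin ligase gene Hectd2 at 3.26 and 2.70 TPM. Gm11716 was 2.44-fold higher (2.02 to 2.98). The remaining 3 rested on fewer counts. Gm20522, opposite Gpank1, was at 1.06 and 2.66 TPM (23 and 63 counts). 6230400D17Rik, opposite the COPII coat gene Sec24c at 29.2 and 32.0 TPM, was at 1.02 and 2.46 TPM. Gm14097, opposite the shieldin gene Shld1 at 2.45 and 2.85 TPM, was at 1.45 and 3.35 TPM (17 and 43 counts). Higher in replicate 1 were D830024N08Rik at 3.7 and 1.2 TPM, 3.18-fold (2.58 to 3.98), Gm12199 at 2.76-fold (2.2 to 3.5) and Srrm4os at 2.11-fold (1.48 to 3.08). With edgeR's exact test and the common dispersion, which allows for more spread than counting, D830024N08Rik was the 1 member still called, beside 1.82% of all genes. That dispersion was estimated from these same 2 libraries taken as 1 group, so it counts the differences under test as spread. Calls lost there are therefore no evidence that the libraries are alike. The exact binomial rule called 9 members with DESeq2 size factors (6.17% of all genes), 9 with no filter on low counts (4.51%), 8 with spike-in scaling (8.19%), 5 of 32 at a mean count of at least 100 (3.56%) and 6 of 82 in the second quantification (6.05%), where Gm15543 had too few counts to be tested. A further 20 members passed the adjusted p but not the 2-fold mark, 6 higher in replicate 2 and 14 higher in replicate 1, beside 29.2% of all genes (14.4% and 14.8% by direction).

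The libraries also differed in fibre type: all 10 slow fibre markers tested were called higher in replicate 2, with summed levels of 244 and 2548 TPM and none at 0. Of 10 fast fibre markers, Myh1 and Myh2 were called higher in replicate 2, and their summed levels were 97660 and 76119 TPM. Of 6 markers each, 2 endothelial (summed 36 and 54.04 TPM), 2 smooth muscle (96.9 and 135 TPM) and 2 Schwann cell genes (20.7 and 30 TPM) were called higher in replicate 2. Of 6 adipocyte genes (125 and 142 TPM), Adipoq and Lep were called higher in replicate 2, and Retn was called lower there. No fibroblast, macrophage or satellite cell marker was called, although 6, 2 and 2 of them had an unadjusted exact binomial p under 0.05. The part of these differences in the antisense results was not tested. In bulk tissue, fewer cells of a type and less RNA per cell cannot be told apart.

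Among the partners, 75 could be tested and 3 (4%) were called, all higher in replicate 2, beside 5.62% of protein-coding genes (4.31% higher in replicate 2). They were Jun at 2.67-fold, Myh1 at 2.2-fold and Jund, another AP-1 subunit gene, at 2.02-fold (13.8 and 28.8 TPM). Their antisense RNAs Junos, Myhas and Gm11175 (1.49 and 1.11 TPM) were not called, and in no pair were both genes called. Junos lay on the same side as Jun (log2 0.72, exact binomial test, adjusted p = 0.0322, under 2-fold), and Myhas on the opposite side. Gm11175 was nominally on the opposite side (log2 -0.45, exact binomial test, adjusted p = 0.642). It rested on 17 and 14 counts, too few to settle its direction. All 877 exonic bases that Gm11175 shares with Jund are coding. Over the 75 pairs, antisense gene and partner lay on the same side of 0 in 33 and on opposite sides in 42, with a Pearson r of 0.07 and a Spearman rho of -0.03 between their log2 differences. Spike-in scaling moves all these log2 values upward by 0.22.

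**Figure D4:**
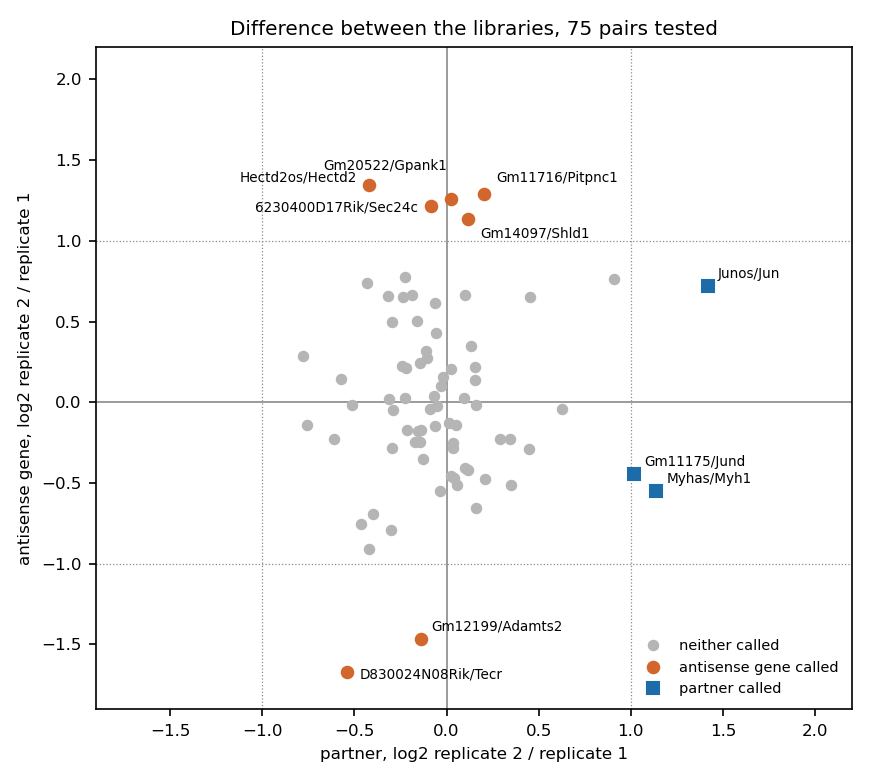
Log2 replicate 2 over replicate 1 on TMM-scaled counts for the partner (x axis) and the antisense gene (y axis) in the 75 pairs tested; dotted lines mark 2-fold. The called antisense genes (orange) sit near a partner value of 0 apart from Hectd2 and Tecr, and the 3 called partners (blue squares) have antisense genes inside the dotted lines.

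The ratio of antisense gene to partner does not depend on library scaling. Fisher's exact test of the 4 counts of a pair, adjusted over all 192 annotated pairs with a mean count of at least 10 on both sides, called 11 of 75 member pairs at 2-fold, beside 14.1% of the 192. The antisense share was higher in replicate 2 in 7 of the 75 pairs, where 6.25% of all 192 annotated pairs were called in that direction. It was higher in replicate 1 in 4 of the 75, where 7.81% of the 192 were. With an antisense mean count of at least 100, 6 of 29 member pairs were called, beside 20.6% of 34 annotated pairs. Pairs called here in which neither gene was called alone were Gm16536 opposite Bace1, the beta-secretase gene (15.5% of the partner in replicate 1 and 30.4% in replicate 2), Gm32352 opposite Wfdc1 (6.7% and 15.1%) and Gm45051 opposite 0610030E20Rik (53.7% and 115%). The pairs of Myhas and Gm11175, whose partners were called alone, were called here too. Gm11175 was at 10.8% of Jund in replicate 1 and at 3.85% in replicate 2. That pair rested on 17 and 14 counts of Gm11175, beside 683 and 1565 of Jund. Jund alone was called, so the ratio is no evidence that Gm11175 itself differed. In 60 pairs the ratio differed by under 2-fold between libraries.

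Cells process antisense and double-stranded RNA through several known routes, and 4 lists of such genes were put through the same test. Of the 13 RNA interference genes (Dicer1, Drosha and the Argonautes among them), 13 were tested and none was called. None was called of 14 tested genes for editing and sensing of double-stranded RNA (such as Adar), 23 of the nuclear exosome, which degrades short-lived noncoding RNA, and 11 of polycomb repressive complex 2. Median log2 differences were -0.07, 0.09, 0.03 and 0.01 in that order, beside 0.01 over all genes. Unadjusted exact binomial p-values were under 0.05 for 6, 5, 4 and 3 genes. Over all genes 6.18% were called and 42.5% had an unadjusted p under 0.05, so lists this short are not set apart by having no call. The absolute log2 difference was at most 0.77 in any of them.

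Whether reads were assigned by strand is not stated in the sources used here, although the deposited file lists name separate plus and minus strand signals. The part of strand assignment in these levels was not tested, and the levels opposite abundant partners are given as a description. Over the whole annotation, 45 antisense genes share exonic bases with a partner of at least 100 TPM, and 36 of them were under 1 TPM in both libraries, 15 of them at 0 in both. A930016O22Rik shares 451 exonic bases with the creatine kinase gene Ckm, at 18932 TPM on average, and was at 1.39 and 0.86 TPM. Gm13938 shares 453 with the titin gene Ttn (2115 TPM) and was listed at 0 in both. The 4 of the 45 that are members were Myhas, Gm15179, Rab10os (3.19 and 3.79 TPM opposite Rab10, a membrane traffic GTPase gene, at 142 and 118 TPM) and H3f3aos (1.51 and 1.60 TPM opposite the histone gene H3f3a at 125 and 120 TPM). Their means were 1.27% to 2.90% of the partner. The rule kept them for reaching 1 TPM, so nothing is read from their standing above the rest of the 45.

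Both deposited quantifications were set side by side for each member, since overlapping genes are where methods of assigning reads can part. The second gave TPM within 2-fold of the first for 76 of 88 members (86.4%), beside 94.2% of detected coding genes; it was over 2-fold higher for 8 and over 2-fold lower for 4. Its median log2 ratio to the first was 0.54 for members and 0.44 for coding genes. Relative to that coding median, a comparison added after seeing the data, 79 members were within 2-fold, 3 were higher and 6 lower. 2900060B14Rik, within the microtubule gene Clasp1, was at 1.59 and 1.68 TPM in the first and listed at 0 in both libraries in the second. Gm15543 was at 1.71 and 4.65 TPM in place of 10.2 and 32.0, lower by more than 2-fold in both, though still higher in replicate 2. Gm20457, opposite the phosphatase-family gene Mtmr10, was at 0.33 and 0.19 TPM in place of 1.90 and 1.54. Mir133a-1hg, host of the muscle microRNA genes Mir133a-1 and Mir1a-2, was at 6.90 and 3.99 TPM in place of 14.5 and 12.2. Its partner Mib1, a ubiquitin ligase gene of Notch signalling, was at 41.3 and 58.1 TPM in the first. In the other direction, Gm47320, within the activin receptor gene Acvr2b, was at 6.47 and 3.65 TPM in place of 1.38 and 1.16, and Gm15756, opposite the folate enzyme gene Aldh1l1, at 11.3 and 7.18 TPM in place of 2.94 and 1.92. Junos was higher too, at 6.42 and 8.95 TPM.

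**Figure D5:**
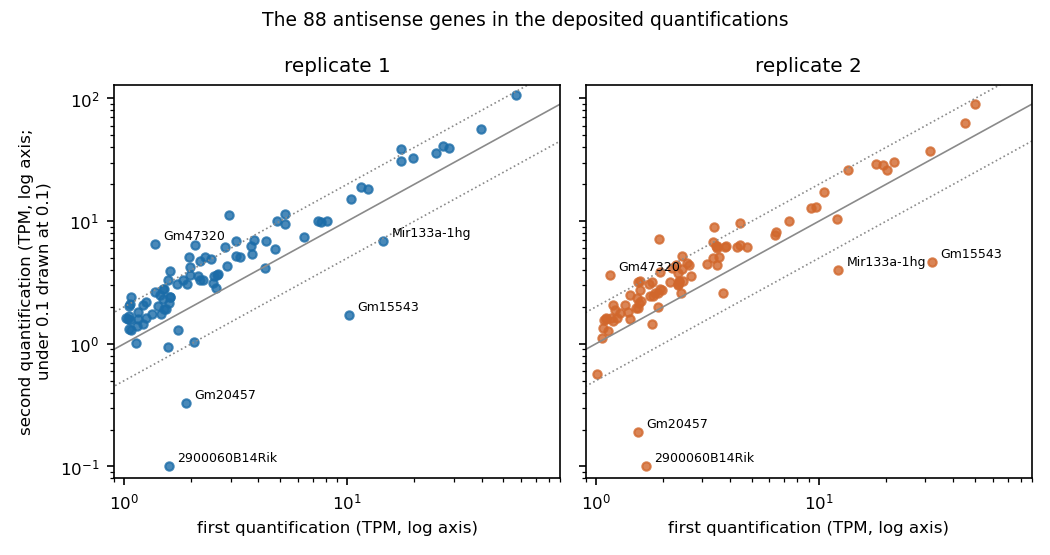
TPM of the 88 antisense genes in the second against the first quantification (log axes), replicate 1 left and replicate 2 right; the solid line marks equal values and dotted lines 2-fold. Gm15543, Gm20457, Mir133a-1hg and 2900060B14Rik lie below the lower dotted line in both panels.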

How the data were processed

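The authors deposited, per the file headers, a gene table with expected counts (estimated counts, not whole) and TPM, a transcript table with each isoform's percent of its gene, and a second transcript table with estimated counts and TPM, for each library. A posterior standard deviation of each count, here a score, stands beside it in the deposited gene table. Genome build mm10 is stated per the labels. No header or label names the quantification programs or says whether counting used strand. Members and gene lists were chosen with earlier results of these data known, and the genes named follow a rule: the 10 highest members, all called members, the 8 highest antisense-to-partner ratios, the 5 widest differences between quantifications, the genes around the threshold and the called partners; any other gene was named after its values were seen.

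Genes were joined to GENCODE M21 by identifier; summed transcripts gave gene TPM in the second table. Expected counts were rounded and compared by an exact binomial test (scipy 1.17.1) with TMM library sizes (edgeR 4.0.16), a minimum mean count of 10 and a prior count of 0.5 for fold changes, since 1 group of 2 libraries leaves no residual degrees of freedom for edgeR's quasi-likelihood test. The test was checked on simulated counts that held counting error only, so the check does not cover extra spread between libraries. Intervals are 95% exact and cover counting error only. Antisense-to-partner ratios for ranking used a pseudocount of 0.1 TPM. The Fisher test of pair ratios was added after seeing the data. Alternatives were DESeq2 1.42.0 size factors, spike-in scaling, other filters and thresholds, edgeR's exact test, the second quantification and each library alone.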

Additional observations from a re-analysis of the deposited data

How the results depend on the processing

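No paired analysis was possible because both libraries belong to 1 group. The number of antisense genes detected was 142 at a threshold of 0.5 TPM, 38 at 2 TPM and 16 at 5 TPM, in place of 88 at 1 TPM. The median log2 ratio of antisense gene to partner was -1.82, and became -1.93 with the partner of highest TPM, -1.22 over exon-overlapping pairs alone, -1.67 in the second quantification, -1.41 with a pseudocount of 1 TPM, and -1.74 to -1.69 with 1 library left out. Members called higher in replicate 2 numbered 3 with a mean count of at least 100, 3 in the second quantification and 0 with edgeR's exact test, in place of 6; with that test, 1 in place of 3 was higher in replicate 1 and 0 in place of 3 partners were called (unadjusted p under 0.05 in 8 members and 3 partners). Under DESeq2 size factors or no filter on low counts all 9 members kept their call; under spike-in scaling 8 did. Spike-in scaling gave median log2 differences of 0.19 for members and 0.15 for partners. Within 1.5-fold, 43 members matched between quantifications. The antisense genes under 1 TPM opposite abundant partners numbered 73 with partners of at least 50 TPM and 9 at 500 TPM (chosen after seeing the data). The Fisher test of pair ratios called 6 of 29 member pairs (20.6% of 34 annotated pairs) when antisense genes under a mean of 100 counts were left out, in place of 11 of 75. The cause of these changes was not tested, apart from fewer genes entering stricter filters. Members rested on 12 to 2548 counts per library, and depth limits the lowest most: Gm14097, at 17 and 43 counts, had a 95% exact interval of 1.25 to 4.18-fold.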
